A study of Mus musculus with 10 samples.

Results

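Axon guidance ligands and receptors were examined by their transcript levels in whole mouse embryos at embryonic day 11.5. The members were all gene symbols of the semaphorin, plexin, slit, robo, netrin, Dcc and Unc5, Eph and ephrin families that had a mean normalized count above 0. The rule took 67 of the 24302 genes of the table, namely 35 ligands, 31 receptors and the antisense RNA *Plxna4os1*, and no matching symbol was at 0. The embryos were of the C57BL/6 strain and comprised 3 wildtype embryos, 3 heterozygous embryos (WWC2-/+) and 4 homozygous *Wwc2* KO embryos (WWC2-/-), 10 in all. *Wwc2* encodes a scaffold protein upstream of the Hippo kinases. In the study, the floxed gene was deleted with a Cre recombinase driven by the *Zp3* promoter, which is active in growing oocytes, so the deletion was not restricted to a tissue. The level used here is the authors' mean normalized count over all 10 embryos, in which KO embryos made up 40.0%. It gives no value per embryo or per genotype, so no spread, no test and no comparison of genotypes is given for any gene. *Wwc2* itself had a mean normalized count of 2117, which as a mean over all genotypes cannot serve as a check of the labels.

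These families form the main extracellular steering system of growing axons. Ligands are secreted or held on the surface of neighboring cells, and receptors on the growth cone convert them into attraction or repulsion through the actin cytoskeleton. Semaphorins bind plexins, with neuropilins as co-receptors for most of class 3, slits bind robos, netrins attract axons through Dcc and repel them through Unc5 receptors, and ephrins bind Eph receptor tyrosine kinases in contacts that can signal into both cells. The same molecules also pattern vessels, somites and neural crest, so in a whole embryo their transcripts come from many tissues. In such bulk RNA, a low level from few expressing cells and a low level per cell cannot be told apart.

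The guidance genes were moderately expressed as a group, with a wide spread between members. Levels between genes were compared per length, as the mean normalized count per kilobase (kb) of exon, with the exons of all annotated transcripts of a gene joined. The median of the 66 protein-coding members was 168 per kb, against 75.05 per kb over the 19897 genes above 0 with an annotated length, and 50 members lay at or above that median of all genes while 16 lay below it. Of these 19897 genes, 17608 were protein-coding. The median of the members was not compared with these alone, nor with genes whose mean was 10 or more. The top 25% of all genes began at 277 per kb, and 22 members reached it. This count depended on the definition, with 35 members without length correction, 16 with coding length and 17 against a background of genes whose mean was 10 or more, so no excess of members in the top 25% can be read from it. The extremes were *Plxnb2* with 1579.8 per kb and *Epha6* with 3.44 per kb, a 459-fold range. Together the 66 genes took 0.486% of the summed mean normalized counts of 2.56e+07. The 10 highest members held 46.8% of the summed level per kb. Ordered by level, 47 of the 65 adjacent pairs of members differed by less than 1.1-fold, and since the spread between embryos was not available, the order within such pairs cannot be judged.

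**Figure D1:**
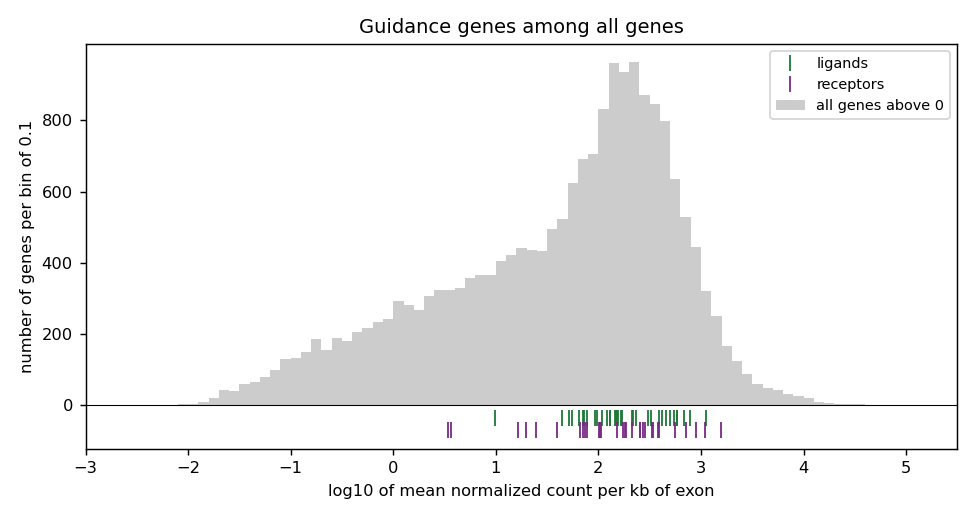
Number of genes (y axis) by the log10 of the mean normalized count per kb of exon (x axis, bins of 0.1), with the 35 ligands and 31 receptors drawn as ticks under the axis. Of the 66 ticks, 50 lie at or above the median of all genes, 75.05 per kb, and *Plxnb3* and *Epha6*, at 3.64 and 3.44 per kb, are the 2 leftmost.

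Marker genes of 8 cell types were examined beside the guidance genes. All 5 markers of each cell type had a mean above 0, as did 20665 of the 24302 genes. Detection alone therefore cannot check the labelled tissue. The lowest marker, *Pax6* of neural progenitors, had 57.3 per kb, below the median of all genes. The medians were 418 per kb for neurons, 1119 for neural progenitors, 686 for mesenchyme, 408 for endothelium, 2137 for heart muscle, 1531 for liver and 51941 for red blood cells. Trophoblast markers were present too, with a median of 492 per kb and 3249.8 per kb for *Tpbpa*, a spongiotrophoblast protein. Trophoblast is placental and not part of the embryo proper. A mean over all genotypes does not show in which embryos these transcripts were present, so it does not describe the wildtype embryos. How much of each guidance gene's level came from any of these cell types was not tested.

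Plexins had the largest summed level of the receptor families. Plexin B2 (*Plxnb2*, chromosome 15 of GRCm38, 89155549 to 89180788), a receptor of class 4 semaphorins needed for closure of the neural tube, had a mean normalized count of 12196, or 1579.8 per kb, and exceeded 96.7% of all genes. It alone made up 36.3% of the summed plexin level of 4350.5 per kb. Plexin D1 (*Plxnd1*), the receptor through which *Sema3e* acts on endothelium, followed with 901 per kb, and *Plxna1*, which carries signals of class 3 semaphorins together with neuropilins, with 718 per kb. An antisense gene overlaps 10.7% of the exon bases of *Plxna1* and 2.68% of those of *Plxnb1*. *Plxnb1*, a *Sema4d* receptor, had 559 per kb, and the other A-type plexins *Plxna3*, *Plxna2* and *Plxna4* had 271, 173 and 77.4 per kb. The *Sema7a* receptor *Plxnc1* had 66.7 per kb. *Plxnb3* (chromosome X, 73757090 to 73772514), a *Sema5a* receptor, stood far below the rest of the family, with a mean normalized count of 23.6 and a level of 3.64 per kb, which is 434-fold below its relative *Plxnb2*.

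The promoters of the B-type plexins at both ends of this range differed in their content of CpG dinucleotides. They are shown because most promoters of broadly used genes are rich in CpG, while many promoters of narrowly used genes are not. Each window covers 250 bases before and 50 bases after the annotated start in RefSeq (GRCm38.p6), written 5′ to 3′ on the strand of the gene, with CpG dinucleotides in capitals. The *Plxnb2* window is chr15:89180739-89181038 on the minus strand, the more upstream of 2 annotated starts, and the *Plxnb3* window is chrX:73756853-73757152 on the plus strand.

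Plxnb2: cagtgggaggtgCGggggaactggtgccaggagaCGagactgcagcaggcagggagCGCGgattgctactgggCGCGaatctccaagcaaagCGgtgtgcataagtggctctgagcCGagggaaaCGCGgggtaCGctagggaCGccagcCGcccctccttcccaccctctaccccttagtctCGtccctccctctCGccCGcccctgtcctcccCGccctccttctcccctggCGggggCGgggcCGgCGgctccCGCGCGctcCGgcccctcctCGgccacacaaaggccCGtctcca

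Plxnb3: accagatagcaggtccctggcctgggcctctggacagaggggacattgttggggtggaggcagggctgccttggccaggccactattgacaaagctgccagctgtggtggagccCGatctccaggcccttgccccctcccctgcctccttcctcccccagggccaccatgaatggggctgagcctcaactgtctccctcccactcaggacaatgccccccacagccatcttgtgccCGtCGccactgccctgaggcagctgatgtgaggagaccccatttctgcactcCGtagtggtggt

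The *Plxnb2* window holds 27 CpG dinucleotides and the *Plxnb3* window 4. The ratio of observed to expected CpG, which corrects for the number of C and G bases, was 0.735 for *Plxnb2* and 0.133 for *Plxnb3*, although the GC content was 70.3% and 63.7%. The other annotated *Plxnb2* window, at chr15:89173902-89174201, had 15 CpG dinucleotides and a ratio of 0.533. The third B-type plexin, *Plxnb1*, had 36 CpG dinucleotides and a ratio of 0.875 at 559 per kb, so the CpG content of the B-type plexins did not follow the order of their levels.

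Semaphorins were spread over many members of intermediate level. The 20 genes summed to 3356 per kb. Class 3 semaphorins are secreted and mostly repel axons. In this class *Sema3f*, which acts through neuropilin 2, had the highest level at 458 per kb and 43.5% of the class, followed by *Sema3c* with 167 per kb, *Sema3a*, which acts through neuropilin 1, with 131 per kb and *Sema3g* with 96.8 per kb. *Sema3d* and *Sema3b* had 76.9 and 70.7 per kb, and *Sema3e*, the ligand of plexin D1, was the lowest with 51.4 per kb. This order depended on the joined exon length. Uncorrected for length, *Sema3a* was above *Sema3c*, with mean normalized counts of 1819 and 1194. *Sema3b* was then the lowest, with 338 against 477 for *Sema3e*. Coding length gave the same changes of order. The range per kb of exon was 8.91-fold in class 3 and 12.4-fold in the membrane-bound class 4. There, the plexin B2 ligand *Sema4c* was highest with 541 per kb, and *Sema4f* lowest with 43.8 per kb. An antisense gene overlaps 7.27% of the exon bases of *Sema4c*. *Sema4g* had 169, *Sema4b* 92.7, the plexin B1 ligand *Sema4d* 72.9 and *Sema4a* 55.8 per kb.

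Transmembrane semaphorins of classes 5 and 6 spanned narrower ranges, 1.40-fold over 2 members and 2.68-fold over 4. Classes 3 and 4 have 7 and 6 members, and a range tends to grow with the number of members. The narrower ranges can thus not be read as a trait of these classes. *Sema5b* and *Sema5a*, which carry thrombospondin repeats, had 215 and 153 per kb. Uncorrected for length, *Sema5a* was the higher, with a mean normalized count of 2864 against 1520. Class 6 semaphorins, which bind A-type plexins, ranged from 121 per kb for *Sema6b* over 131 for *Sema6d* and 230.0 for *Sema6a* to 324 per kb for *Sema6c*. Uncorrected for length, *Sema6a* was slightly above *Sema6c*, with 2019 against 1926. *Sema7a*, the family member held by a glycolipid anchor, had 155 per kb. The class medians were 96.8, 82.8, 184 and 180.4 per kb for classes 3, 4, 5 and 6.

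Slits and robos, which keep commissural axons from crossing the midline again, were set side by side by their sums. The 3 slits summed to 565 per kb and the 3 robos to 688 per kb. *Slit3* had 307 per kb, *Slit1* 149 and *Slit2* 109 per kb. Uncorrected for length, *Slit2* was the highest of them with a mean normalized count of 2769.5, against 1863 for *Slit3*. The joined exons of *Slit2* were 25.4 kb long and its longest transcript 9.96 kb. Among the receptors, *Robo1* had 329 per kb, *Robo3*, which modulates robo signaling in axons that have yet to cross, 253 per kb, and *Robo2* 105 per kb.

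Netrin transcripts were dominated by netrin 1. *Ntn1* (chromosome 11, 68209364 to 68400823), the secreted cue of the floor plate and the ventricular zone, had a mean normalized count of 3656 and 583 per kb, which was 66.7% of the netrin sum. *Ntn3* had 217 per kb. The deposited Ensembl identifier of *Ntn3* belongs to its neighbor *Tbc1d24* in GENCODE, so its length was taken by symbol. *Tbc1d24* has a row of its own with a mean normalized count of 902, and whether the 1109 counts listed for *Ntn3* include reads of *Tbc1d24* was not tested. Of the exon bases of *Ntn3*, 1.74% overlap genes on the same strand and 2.72% genes on the opposite strand. *Ntn4*, a netrin of basement membranes, had 64.1 per kb and *Ntn5* 9.85 per kb. Of the exon bases of *Ntn5*, 23.4% overlap *Sec1* on the opposite strand, and 15.5% of its sequence windows of 80 bases, the length of the reads, also occur in another gene. How much of its low count belongs to *Sec1* was not tested.

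Among *Dcc* and the Unc5 receptors, *Unc5b* had the highest level per kb, while without length correction *Dcc* was slightly higher, with a mean normalized count of 2471 against 2446. *Unc5b*, which also acts in endothelium, had 391 per kb and 50.6% of the sum of the family, *Dcc*, the receptor for attraction, had 188 per kb, *Unc5c* 106, *Unc5a* 71.0 and *Unc5d* 16.4 per kb. The receptors summed to 772 per kb and the netrins to 874 per kb. *Dcc* spans 1097 kb of the genome and *Unc5d* 573 kb.

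Ephrins included the highest ligand levels. All 3 B-type ephrins, which cross the membrane and signal into the cell that bears them, lay in the top 25% of genes. *Efnb1* (chromosome X, 99136130 to 99148991) had 1110.3 per kb, *Efnb3* 779.8 and *Efnb2*, a marker of arterial endothelium that is also expressed in the neural tube and somites, 500.2 per kb. The promoter windows of *Efnb1* and *Efnb2* are shown as the counterpart to the plexins, since here both relatives were well expressed. They lie at chrX:99135811-99136110 on the plus strand and chr8:8661193-8661492 on the minus strand of GRCm38.p6, with CpG dinucleotides in capitals.

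Efnb1: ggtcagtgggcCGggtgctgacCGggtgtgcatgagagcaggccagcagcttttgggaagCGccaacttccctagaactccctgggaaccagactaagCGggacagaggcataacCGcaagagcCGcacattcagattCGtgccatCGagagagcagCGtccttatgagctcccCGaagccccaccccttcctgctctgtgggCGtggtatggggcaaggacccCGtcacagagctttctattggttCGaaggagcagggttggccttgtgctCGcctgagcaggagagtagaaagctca

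Efnb2: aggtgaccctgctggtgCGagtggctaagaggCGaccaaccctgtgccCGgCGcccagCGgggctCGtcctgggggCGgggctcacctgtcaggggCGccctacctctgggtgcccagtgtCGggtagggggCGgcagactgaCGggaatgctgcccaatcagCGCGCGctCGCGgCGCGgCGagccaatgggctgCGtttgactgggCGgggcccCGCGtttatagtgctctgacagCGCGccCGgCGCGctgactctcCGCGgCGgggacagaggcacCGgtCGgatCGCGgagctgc

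The *Efnb1* window holds 14 CpG dinucleotides with a ratio of observed to expected CpG of 0.527, and the *Efnb2* window 35 with a ratio of 0.904. Here too the gene with the lower level per kb of exon had the CpG-richer window, as in *Plxnb1* against *Plxnb2*.

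A-type ephrins, which are held by a glycolipid anchor, were also highly expressed for their size. *Efna2* had 681 per kb, *Efna4* 581, *Efna1* 414, *Efna5* 385 and *Efna3* 145 per kb. By level per kb of exon, 4 of the 5 lay in the top 25% of genes, which was not counted for this family without length correction. Their mean normalized counts lay between 353 for *Efna3* and 1554 for *Efna5*, and their joined exons were short, with 1.60 kb for *Efna4* and 4.03 kb for *Efna5*. *Efna1*, *Efna3* and *Efna4* are neighbors on chromosome 3, separated by 32.8 and 10.4 kb, and the middle gene, *Efna3*, was the lowest. For *Efna3* and *Efna4*, 14.1% and 10.5% of the exon bases overlap an antisense gene.

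EphA receptors ranged 110-fold, more than any family but the plexins, and EphB receptors 10.8-fold. *Ephb4*, the venous partner of ephrin-B2, had a mean normalized count of 5116 and 1103 per kb, which was 55.7% of the summed EphB level of 1979 per kb. *Ephb3* and *Ephb2* had 337 and 285 per kb, *Ephb6*, which lacks kinase activity, 152 and *Ephb1* 102 per kb. Uncorrected for length, *Ephb2* was above *Ephb3*, with mean normalized counts of 3592 and 2237. *Ephb6* was then the lowest EphB receptor, with 575 against 716 for *Ephb1*. In the EphA group *Epha4*, a receptor of motor and commissural axons that binds ephrins of both types, was highest with 379.9 per kb, followed by *Epha3* with 253, *Epha7* with 214 and *Epha2*, an EphA receptor of epithelia, with 179.6 per kb. *Epha1* had 73.5 per kb and *Epha8* 39.6. The lowest were *Epha5* with 24.4, *Epha10*, which lacks kinase activity, with 19.5, and *Epha6* with 3.44 per kb at a mean normalized count of 18.2. Antisense genes overlap 6.008% of the exon bases of *Epha1*, 2.17% of those of *Ephb1* and 2.02% of those of *Epha6*.

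**Figure D2:**
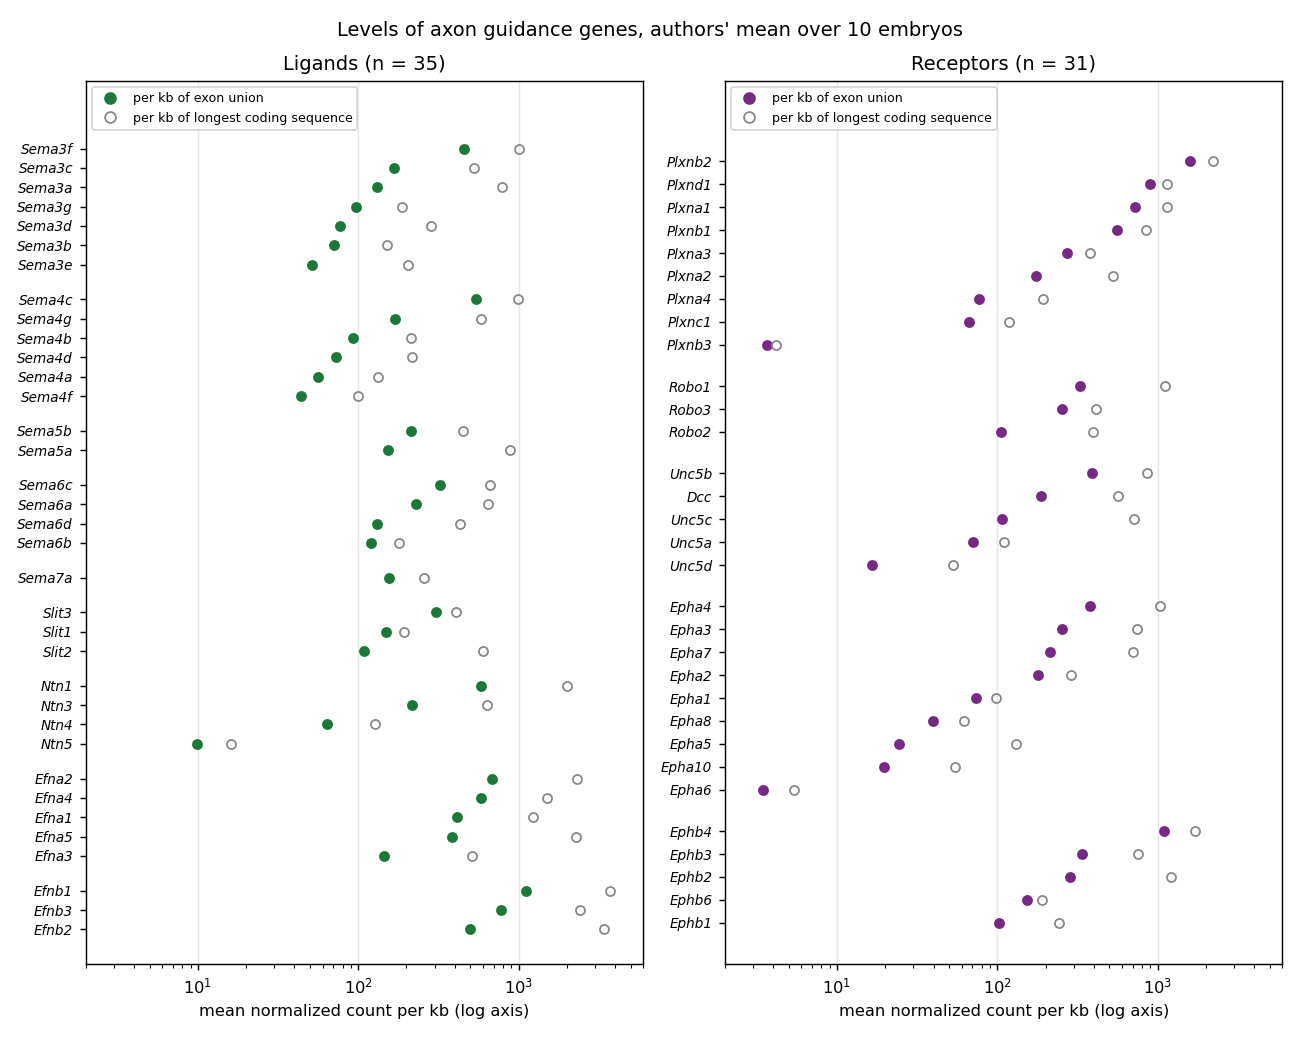
Mean normalized count per kb (x axis, log scale) of each ligand (left, green) and receptor (right, purple), grouped by family and ordered within it. Filled points use the joined exons and open gray points the longest coding sequence. *Plxnb2* at 1579.8 per kb is the highest filled point, and *Efnb1*, *Efnb2* and *Efnb3* are the highest open points.

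Ligands and receptors of the 5 systems were then set side by side. In summed level per kb, A-type ephrins exceeded EphA receptors 1.86-fold, B-type ephrins exceeded EphB receptors 1.21-fold, and netrins exceeded Dcc and Unc5 receptors 1.13-fold, while semaphorins stood at 0.771 of plexins and slits at 0.821 of robos. These ratios carry no error, and 4 of the 5 changed side under another definition of length or of the receptors. Without length correction every ratio was below 1, at 0.546 for A-type ephrins and 0.796 for B-type ephrins. The median joined exon length was 5.41 kb for ligands and 7.88 kb for receptors. With coding length, semaphorins exceeded plexins 1.36-fold. Slits stayed below robos under all 5 definitions that were run, between 0.616 and 0.821.

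**Figure D3:**
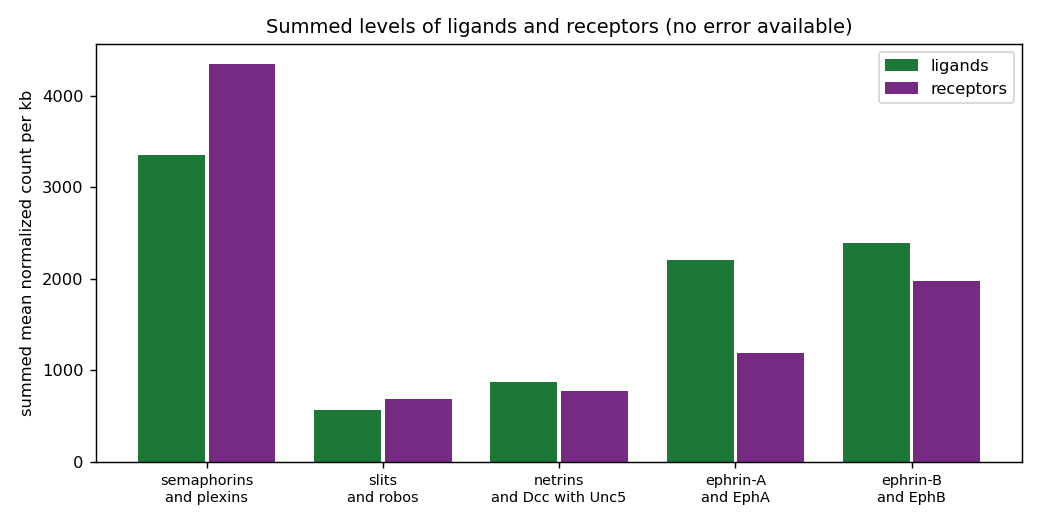
Summed mean normalized count per kb of exon (y axis) of the ligands (green) and receptors (purple) in each of the 5 systems (x axis). Plexins form the tallest bar at 4350.5 per kb and slits the lowest at 565 per kb, and no error bars can be drawn for means without values per embryo.

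All listed partners of these receptors were above 0, as were 20665 of the 24302 genes, so their levels are given instead. Of 11 co-receptors, 5 lay in the top 25% of genes. The netrin and RGM receptor *Neo1* was the highest with 670.3 per kb, *Nrp2* had 468 and *Nrp1* 258 per kb, *Robo4*, an endothelial relative of the robos, 178 per kb, and *Dscam* was the lowest with 23.9 per kb. With *Neo1* counted as a receptor, the netrin ratio became 0.606. Among 5 other guidance ligands, *Rgma* led with 487 per kb and *Ntng1* was lowest with 23.2 per kb. Of 29 intracellular partners, 13 lay in the top 25% of genes. *Dpysl3*, of the collapsin response mediators that act downstream of semaphorins, was the highest with 1370.3 per kb, and *Ngef*, an exchange factor downstream of EphA receptors, the lowest with 16.4 per kb.

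Guidance genes were long, while the CpG content of their promoters was near that of other expressed genes. The median genomic span of the 66 members was 45.1 kb, against 21.7 kb over 17608 protein-coding genes above 0, and the median joined exon length was 6.74 kb against 3.95 kb. The Spearman correlation between span and level per kb was -0.23 across the 66 members, which are not independent replicates. Across the 17608 protein-coding genes it was 0.014. RefSeq promoter windows were matched for 56 members, 72 windows in all. Of these, 58.3% had a ratio of observed to expected CpG above 0.6, against 35.8% of all 32851 windows of the same length, which include those of genes not expressed here. Counted per gene, the median ratio was 0.669 for the 56 members and 0.666 for 13630 protein-coding genes above 0, so the members did not stand apart from expressed genes. Across the 56 members the Spearman correlation of the median ratio with the level was 0.18, and across the protein-coding genes it was 0.55. Members with low ratios included the poorly expressed *Plxnb3* and *Ntn5*, but also *Sema3a* with a ratio of 0.162 at 131 per kb. The only *Sema3a* window, chr5:13396534-13396833, lies inside the gene, which spans 13125414 to 13602565. It therefore does not describe the start of the gene in GENCODE. Windows of other members lie inside the gene as well, such as those of *Robo1*, *Sema4d*, *Plxna2* and *Epha10*. The *Robo2* windows that start at 75092721 and 75447244 on chromosome 16 lie outside its GENCODE span, which ends at 74411825. *Epha8* had a ratio of 1.06 at 39.6 per kb.

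**Figure D4:**
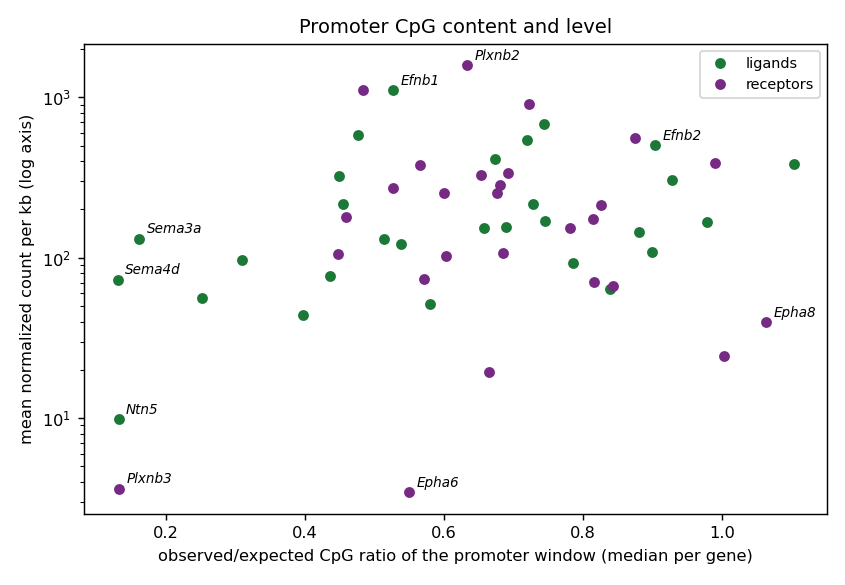
Level per kb of exon (y axis, log scale) of the 56 members with a RefSeq promoter window against the ratio of observed to expected CpG in it (x axis, median where a gene has several windows). *Plxnb3* and *Ntn5* lie at the lower left, with ratios of 0.133 and 0.132, while *Epha6* is as low with a ratio of 0.550.

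Short motifs were counted in the same windows on both strands, with all RefSeq windows, expressed or not, as the background. The median GC content was 64.3% in member windows and 52.7% in all windows, which bears on the count of each motif. The GC box GGGCGG was in 70.8% of member windows and in 35.7% of all windows. The TATA box TATAAA was in 2.78% of member windows, those of *Efnb2* and *Slit2*, against 13.6% of all windows, and the CCAAT box in 27.8% against 37.4%. GGAATG, the core of the motif bound by TEAD factors, the DNA-binding partners of YAP and TAZ, was in 9 of the 72 windows (12.5%), against 14.7% of all windows. The 9 windows belong to *Efnb2*, *Epha1*, *Epha2*, *Epha3*, *Ntn3*, *Plxnb1*, *Plxnd1*, *Robo2* and *Sema4a*. None of these motifs contains another, and a match describes letters only.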

How the data were processed

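RNA of 3 wildtype, 3 heterozygous and 4 homozygous *Wwc2* KO embryos was sequenced by the authors with reads of 80 bases. Per the labels and the paper's methods, the authors trimmed reads with Trimmomatic (version 0.33), aligned them to mm10 with HISAT2, counted them per gene with HTSeq and used DESeq2. The labels and the paper name different versions of the library kit, and the strand setting of the counting is not given in the sources used here, so antisense overlap of more than 2% of the exon bases is stated beside the genes it touches. The deposited signal used is the mean over the 10 embryos of counts divided by size factors, which was the same in both deposited tables for all 24302 genes. The other value columns hold the authors' own comparisons of heterozygous and of KO with wildtype embryos (fold changes, standard errors, p-values). They were not used, so no genotype effect is reported and the counts behind single embryos are unknown.

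Symbols were matched to GENCODE M21 (GRCm38, the build named mm10), 23367 of 24302, and the mean was divided by joined exon length. Of the deposited Ensembl identifiers, 54 belong to another symbol. Promoter windows came from RefSeq (GRCm38.p6). Each 80-base window of a member's transcripts was searched in the transcripts of all other genes on both strands. Within each family the highest and lowest members per kb are named with values. Members and lists were chosen with earlier results of these data known. The length and window code was tested on simulated data. Python 3.11.15, pandas 2.3.3, numpy 2.4.6 and scipy 1.17.1 were used.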

Additional observations from a re-analysis of the deposited data

How the results depend on the processing

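No paired analysis was possible because the value used is 1 mean over all embryos, and for the same reason no embryo could be left out. The share of the members in all counts, 0.486%, was 0.517% without globin and ribosomal protein genes (no symbols of mitochondrially encoded genes were found) and 0.505% among protein-coding genes. Without length correction 35 members lay in the top 25% of genes, while the other 4 settings gave between 16 and 21 against 22. With the longest transcript as length, the ratios of ligands to receptors were 0.962 for semaphorins, 0.620 for slits, 0.962 for netrins, 1.40 for A-type and 1.17 for B-type ephrins. With coding length they were 1.36, 0.623, 1.21, 2.51 and 2.32, and with no length correction 0.630, 0.616, 0.679, 0.546 and 0.796, in the same order. With co-receptors added they were 0.661 for semaphorins, 0.652 for slits and 0.606 for netrins. The side of 1 thus changed in 6 of these values, 3 of them for netrins, and the choice of length or receptors by itself makes the difference. Coding length leaves out untranslated exons whose reads are counted, so it raises genes with long untranslated parts, such as *Efnb2*, which went from rank 12 to rank 2 of the members.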

Other observations

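Members that follow each other on a chromosome differed in level, whether near or far. The difference was between 1.03-fold for *Sema4d* and *Unc5a* and 74.6-fold for *Plxnb3* and *Plxna3*, neither pair within 500 kb. Of the 47 pairs of members that follow each other on a chromosome, 5 lay within 500 kb of each other, and each pair is on 1 strand. *Sema3f* and *Sema3b*, 72.3 kb apart on chromosome 9, had 458 and 70.7 per kb, a 6.47-fold difference, and *Ephb2* and *Epha8*, 93.4 kb apart on chromosome 4, had 285 and 39.6 per kb, a 7.20-fold difference. *Sema3a* and *Sema3e*, 423 kb apart on chromosome 5, differed 2.55-fold. Chromosome 5 held the most members of any chromosome, 7, among them *Sema3a*, *Sema3c*, *Sema3d* and *Sema3e*.

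Few stretches of the length of a read were shared with other genes. For 47 of the 66 members no window of 80 bases occurred in another gene, and for 9 members more than 1% did. Besides *Ntn5*, the largest shares were with genes overlapping on the opposite strand, 5.86% of the windows for *Efna4*, 5.15% for *Sema4c*, 4.97% for *Efna3* and 4.73% for *Plxna1*. Exons of 15 members overlapped an antisense gene, 4 of them over more than 10% of their exon bases. *Plxna4os1*, the antisense RNA that the symbol rule also took, lies within the span of *Plxna4* on the opposite strand, from 32511073 to 32515576 on chromosome 6. Its mean normalized count was 6.35, or 3.21 per kb, against 1092 for *Plxna4*, and its exons overlap none of those of *Plxna4*.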
